A study of Mus musculus with 12 samples.

Results

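Matrix metalloproteinases (MMPs) and their tissue inhibitors (Timps) were followed by RNA-sequencing in mouse mammary tumourspheres treated with a Met inhibitor, an FGFR inhibitor or both. The genes were the rows of the count table with the symbols Mmp2, Mmp3, Mmp9, Mmp10, Mmp11, Mmp13, Mmp14, Timp1, Timp2 and Timp3, which are 10 of the 55573 genes counted. All 10 passed the filter on low counts, which left 13836 genes for testing. The tumourspheres were grown from A1005, A1129 and A1471, which are spindloid lines, each established from a mammary tumour of genotype MMTV-Metmt;Trp53fl/+;Cre. In these mice the mouse mammary tumour virus promoter drives an activated Met transgene, and Trp53 carries 1 floxed allele in the presence of Cre. Every group thus shares the transgene, the Trp53 allele and Cre by origin. The paper also describes amplification of the endogenous Met locus in this model, and expression of the transgene was not examined here. Each line was treated for 24 h with DMSO (the vehicle), with 1 µM Crizotinib (the Met inhibitor), with 1 µM PD173074 (the FGFR inhibitor), or with both drugs (Combo), which gave 12 libraries, 3 lines per treatment and 1 library per line and treatment. P-values therefore measure the spread between 3 lines, with no replicate within a line.

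MMPs are zinc endopeptidases that cut proteins of the extracellular matrix and the cell surface, and most are made as inactive proenzymes. Timps bind the active site of these enzymes and block it. Mmp14 is a membrane-type MMP that cuts collagen at the cell surface and, with Timp2 as a bridge, activates the proenzyme of Mmp2. Timp3 is held in the matrix and also inhibits ADAM and ADAMTS proteases. Receptor tyrosine kinases such as Met and the FGF receptors signal through the ERK cascade to AP-1 and ETS transcription factors, and genes of the MMP cluster that holds Mmp3, Mmp10 and Mmp13 are textbook AP-1 targets.

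The sequences just upstream of these 3 clustered genes are shown because all 3 hold an AP-1 site. They were read from the RefSeq promoter table of build GRCm38.p6, in which 8 of the 10 genes were matched (all except Mmp2 and Mmp9). Each run is 100 bases on the plus strand, which is the strand of the gene, and ends at the base before the start in the RefSeq table, which for Mmp10 lies upstream of the start given for that gene by GENCODE. Capitals mark the AP-1 site TGAGTCA, or its reverse complement TGACTCA, and the ETS-type sequence AGGAAG. Shorter or other ETS sequences, such as GGAA alone, were not searched and are not marked. The Mmp13 window is chr9:7272414-7272513, the Mmp3 window is chr9:7445722-7445821 and the Mmp10 window is chr9:7502242-7502341.
Mmp13: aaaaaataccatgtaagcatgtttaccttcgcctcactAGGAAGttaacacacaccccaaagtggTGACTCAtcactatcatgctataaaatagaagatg
Mmp3: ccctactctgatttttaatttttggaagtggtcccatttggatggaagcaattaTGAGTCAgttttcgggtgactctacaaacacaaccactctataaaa
Mmp10: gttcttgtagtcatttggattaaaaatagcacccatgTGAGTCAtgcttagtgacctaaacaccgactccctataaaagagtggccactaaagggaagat

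The AP-1 site TGAGTCA, searched on both strands of the 250 bases upstream, was found in Mmp3, Mmp10 and Mmp13 and in none of the other 5 matched genes, and 4.46% of 32851 promoters held it. The same 3 promoters held TATAAA on the gene strand, which 7.59% of all promoters did. The exact ETS-type sequence AGGAAG, searched on both strands, was present in Mmp3, Mmp13, Mmp14, Timp1 and Timp3 and in 29.5% of all promoters. These matches describe the letters in the windows only.

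In build mm10, Mmp13 (chr9:7272514-7283331), Mmp3 (chr9:7445822-7455975) and Mmp10 (chr9:7502352-7510240) all lie on the plus strand of chromosome 9. The other proteases are Mmp2 (chr8:92827291-92853420, plus strand), Mmp9 (chr2:164940780-164955850, plus), Mmp11 (chr10:75923222-75936496, minus) and Mmp14 (chr14:54431612-54445364, plus). The inhibitors are Timp1 (chrX:20870166-20874735, plus), Timp2 (chr11:118301069-118355740, minus) and Timp3 (chr10:86300372-86349506, plus).

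Library totals ran from 13031492 to 17750476 counts, and no 2 of the 66 possible pairs of libraries held identical counts. All 8 mesenchymal markers were tested, and their levels differed. Vim lay between 1903 and 3204 CPM (counts scaled to library size) and Fn1 between 377 and 5093. Col1a1 lay between 0 and 759 CPM and Pdgfrb between 0.460 and 98.3, so both were nearly absent from some libraries. Of the 8 epithelial markers, Krt5 and Cldn7 had 0 counts in each library and Cdh1 had at most 9, while Krt18 lay between 53 and 748 counts and Krt8 between 17 and 611. Among the leukocyte markers, Adgre1, Itgam and Csf1r had at most 5 counts in any library, while Ptprc reached 339 counts and Cd68 lay between 62 and 439, and the 4 endothelial markers together stayed at or under 0.752 CPM. In such bulk libraries, fewer cells of a type and less RNA per cell cannot be told apart.

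With DMSO, Timp2 and Timp1 had the highest mean levels and Timp3 the lowest once exon length was taken into account. In CPM per kilobase of exon (n = 3 lines), Timp2 averaged 133 (range 115 to 147), Timp1 127 (85.7 to 164), the stromelysin Mmp3 108 (1.38 to 296) and Mmp14 19.9 (13.7 to 27.8). The remaining genes averaged between 1.03 for Timp3 and 5.76 for Mmp10 on the same scale. Each neighbour in this order overlapped the next in range, so the order of neighbours with DMSO was not resolved beyond the spread between lines. Further apart in the order, Timp2 and Timp1 lay wholly above Mmp14. Mmp14 in turn lay wholly above Mmp9, Mmp11, Mmp2 and Timp3, whose highest values were 8.10, 4.27, 4.90 and 2.49. With Combo, Timp2 stood alone at the top at 521 (312 to 748), followed by Mmp14 at 87.8 (44.1 to 168) and Timp1 at 52.5 (34.6 to 84.6). The ranges of Mmp14 and Timp1 overlapped each other and lay below that of Timp2, and that of Timp1 lay above that of Mmp11 at 20.3 (11.1 to 34.1).

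**Figure D1:**
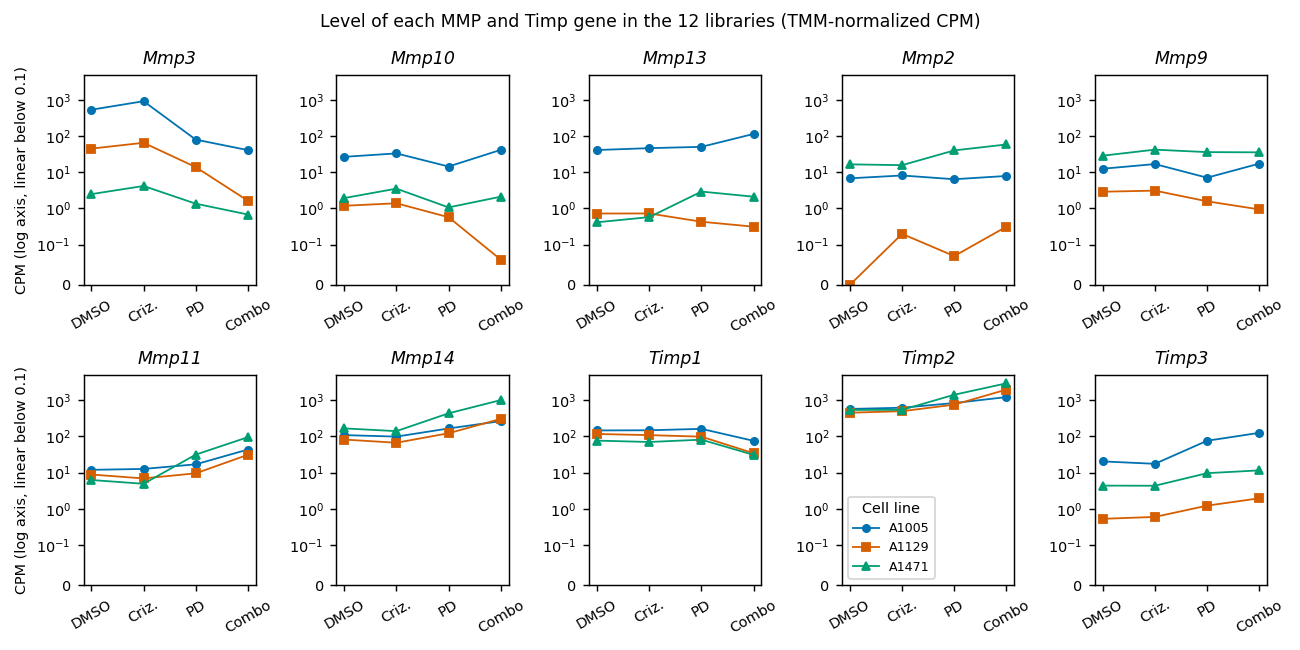
Level of each gene in the 12 libraries, in TMM-normalized CPM on a log axis that is linear below 0.1, against treatment (Criz., Crizotinib. PD, PD173074), with 1 line of points per cell line. Mmp11, Mmp14, Timp2 and Timp3 lie higher and Timp1 and Mmp3 lower with Combo than with DMSO in each cell line, and Mmp2, Mmp3, Mmp9, Mmp10, Mmp13 and Timp3 keep the lines far apart.

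The 10 genes fell into those that differed mainly by cell line and those that differed mainly by treatment. The sum of squares of log2 CPM over the 12 libraries was split into a share for line, a share for treatment and a rest. Line held 95.6% for Mmp2, 93.8% for Mmp13, 92.3% for Mmp9, 87.8% for Mmp10, 85.9% for Timp3 and 72.8% for Mmp3. Treatment held 83.2% for Timp2, 76.9% for Mmp11, 62.4% for Mmp14 and 60.5% for Timp1.

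In the DMSO libraries the lines already differed widely for several proteases. Mmp3 was at 533 CPM in A1005, 44.9 in A1129 and 2.49 in A1471, a 215-fold span. The collagenase Mmp13 was at 41.1 CPM in A1005 and at 0.723 and 0.414 in A1129 and A1471, and the gelatinase Mmp2 was at 16.5 CPM in A1471, 6.79 in A1005 and 0 counts in A1129, which allows up to 3 counts. A1005 thus had the highest levels of the secreted stromelysins and collagenase of the chromosome 9 cluster, and A1471 had the most Mmp2 and Mmp9. Mmp3 was also well detected in A1129, at 683 counts. By contrast the DMSO levels of Timp2 spanned 1.27-fold and those of Mmp11, Timp1 and Mmp14 1.91-fold, 1.91-fold and 2.03-fold.

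**Figure D2:**
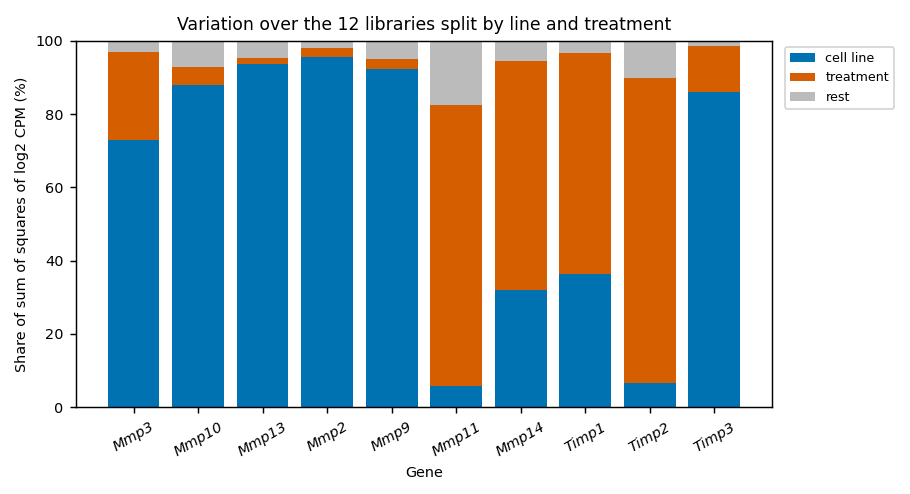
Share of the variation of log2 CPM over the 12 libraries that goes with cell line, with treatment and with neither, in percent, for each gene. Treatment takes the larger part for Mmp11, Mmp14, Timp1 and Timp2, and line for the other 6 genes.

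Met and FGFR inhibition together was compared with DMSO to see what dual inhibition did to this system. In the unpaired fit 3 of the 10 genes passed the threshold, and Mmp11, Mmp14 and Timp2 all rose. In all, 14.4% of the tested genes were called in that comparison, 6.1% of them as higher, and the median log2 fold change was 1.49 over the 10 genes and 0.02 over all genes tested. The lines carry each treatment once, so a fit with the cell line as a block compares treatments within a line. That fit called 8 of the 10 genes, against 54.8% of all genes tested. Mmp2, Mmp11, Mmp13, Mmp14, Timp2 and Timp3 were higher, as were 28.6% of all genes, and Mmp3 and Timp1 were lower, as were 26.2%. Mmp9 and Mmp10 passed in neither fit.

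**Figure D3:**
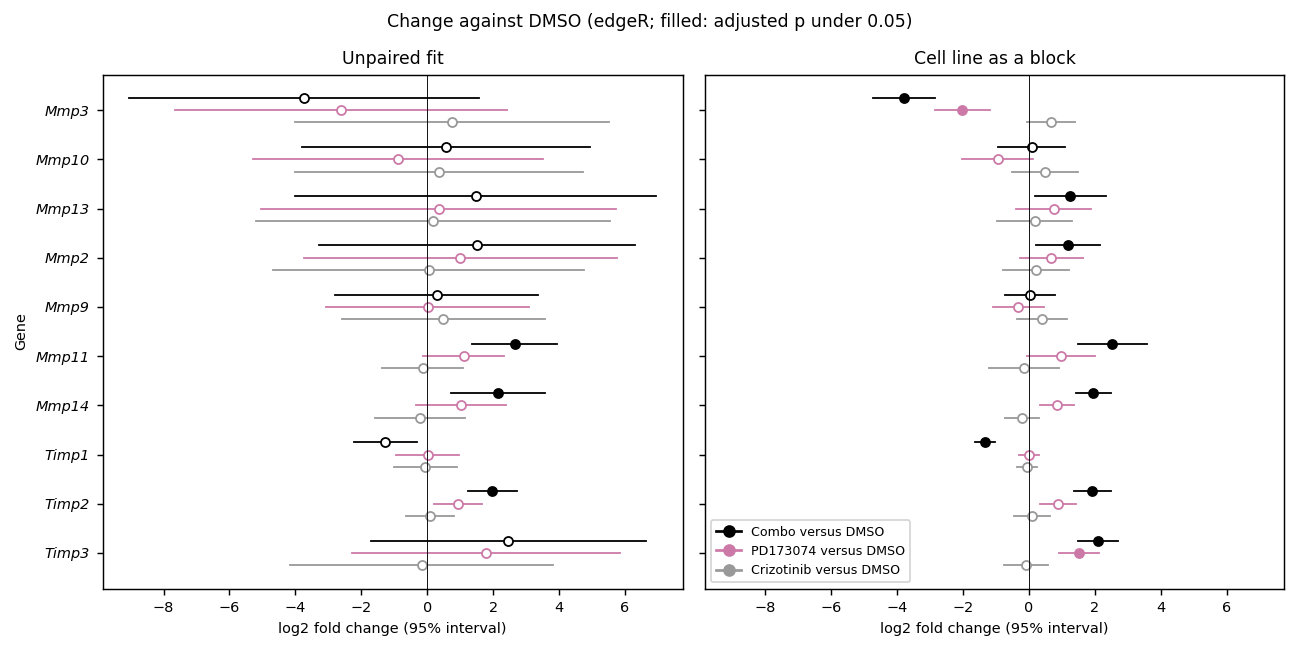
log2 fold change against DMSO with its 95% interval for each gene under Combo, PD173074 and Crizotinib, in the unpaired edgeR fit (left) and blocked by cell line (right). Filled points have an adjusted p under the threshold of 0.05, and 3 points are filled on the left and 10 on the right, among which are Mmp3 and Timp3 under PD173074.

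Mmp14 rose in all 3 lines. Its level went from 108 to 263 CPM in A1005, from 81.5 to 304 in A1129 and from 166 to 1003 in A1471. The 3 Combo libraries lay above the 3 DMSO libraries with no overlap, and A1471 was the highest in both groups. The log2 fold change was 2.14 ± 0.64 (SE, n = 3), a 4.42-fold difference with a 95% interval of 1.66 to 11.8 (edgeR's quasi-likelihood test, adjusted p = 0.0492), and 1.95 ± 0.24 with the line as a block (adjusted p = 0.000115). The unpaired call was close to the threshold and was lost when any of the 3 lines was left out, with adjusted p of 0.113 without A1005, 0.200 without A1129 and 0.0841 without A1471. The call held in the blocked fit whichever line was left out.

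Mmp11, stromelysin-3, which unlike most secreted MMPs is activated inside the cell by furin, had the largest fold of the genes that passed the unpaired fit. It went from 11.9 to 43.2 CPM in A1005, from 8.81 to 30.9 in A1129 and from 6.22 to 94.8 in A1471. The lowest Combo library was above the highest DMSO library, and A1471 moved from the lowest level with DMSO to the highest with Combo. The log2 fold change was 2.65 ± 0.58 (SE, n = 3; adjusted p = 0.0156), and 2.52 ± 0.47 with the line as a block (adjusted p = 0.00137). Furin itself was at 114 ± 22.5 CPM (SD, n = 3) with DMSO and 129 ± 44.6 with Combo (log2 fold change 0.17, adjusted p = 0.769 by edgeR). Mmp11 overlaps Chchd10 on the opposite strand over 155 bases, 5.58% of its exons, and the use of strand in the counting is not given in the sources used here.

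Timp2, which both inhibits MMPs and bridges Mmp14 to the proenzyme of Mmp2, went from 571 to 1214 CPM in A1005, from 449 to 1957 in A1129 and from 537 to 2914 in A1471. The DMSO levels were close together and every Combo library was above them. The log2 fold change was 1.97 ± 0.33 (SE, n = 3; adjusted p = 0.00463 by edgeR) and 1.92 ± 0.26 with the line as a block (adjusted p = 0.000184). Without A1129 or without A1471 the unpaired adjusted p of Timp2 was 0.109 or 0.0818, and that of Mmp11 was 0.101 or 0.133, so these calls were lost although the direction was kept.

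Timp1 moved the other way. Its level went from 146 to 75.1 CPM in A1005, from 116 to 34.2 in A1129 and from 76.1 to 30.7 in A1471. Each line was lower with Combo, and the highest Combo library lay just under the lowest DMSO library. The log2 difference of -1.27 ± 0.43 (SE, n = 3) missed the threshold in the unpaired fit (adjusted p = 0.0806, and 0.0229 without A1005), passed it in DESeq2 (adjusted p = 0.0320), and was called with the line as a block, in which Timp1 fell by 1.33 on the log2 scale (adjusted p = 4.68e-05). Timp1 lies within Syn1, on the opposite strand, and the exons share 0 bases.

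Mmp3, a stromelysin with a wide range of matrix substrates, showed the largest size of change of the 10 genes. It went from 533 to 40.8 CPM in A1005, from 44.9 to 1.63 in A1129 and from 2.49 to 0.679 in A1471, where the last pair stands for 36 and 9 counts. Each line was lower with Combo, by 13.1-fold, 27.6-fold and 3.66-fold, but the groups overlapped because the lines lay so far apart. The unpaired log2 difference was -3.74 ± 2.38 (SE, n = 3; adjusted p = 0.341), and with the line as a block Mmp3 fell by 3.79 on the log2 scale (SE 0.42, adjusted p = 6.17e-05). Mmp3 and Mmp10 share 140 of their 50-base stretches with each other, 8.39% of those of Mmp3 and 8.37% of those of Mmp10, so some reads could have been counted for either gene or dropped.

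Mmp10 and Mmp13, its neighbours on chromosome 9, did not follow Mmp3 in every line with Combo. Mmp10, the second stromelysin, was at 26.6, 1.18 and 1.93 CPM with DMSO in A1005, A1129 and A1471 and at 41.5, 0.0627 and 2.11 with Combo. The A1129 values stand for 18 counts and 1 count, and the interval of the blocked log2 difference ran from -0.93 to 1.08. Mmp13 was at 41.1, 0.723 and 0.414 CPM with DMSO and at 114, 0.313 and 2.11 with Combo, which are 526, 11 and 6 counts and 2054, 5 and 28 counts. Mmp13 was higher with Combo in A1005 and A1471 and lower in A1129, where it was scarcely detected. Its blocked log2 fold change of 1.25 passed the threshold narrowly (adjusted p = 0.0496) and lost it without A1005 (0.80, adjusted p = 0.501) or without A1471 (1.07, adjusted p = 0.0941).

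Timp3 was higher with Combo in each line, at 125 against 20.3 CPM in A1005, 1.94 against 0.526 in A1129 and 11.5 against 4.35 in A1471. The groups overlapped, with A1005 highest and A1129 lowest under both conditions. The unpaired log2 difference was 2.46 ± 1.87 (SE, n = 3; adjusted p = 0.438), and with the line as a block Timp3 rose by 2.08 ± 0.27 (adjusted p = 0.000172). Timp3 lies within Syn3 on the opposite strand, and 21.3% of its exon bases are also Syn3 exon.

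The gelatinases Mmp2 and Mmp9 did not pass the unpaired fit. Mmp2 went from 6.79 to 7.89 CPM in A1005, from 0 to 5 counts in A1129 and from 16.5 to 58.5 CPM in A1471. The difference was thus largest in A1471, small in A1005 and at the limit of detection in A1129. The blocked log2 fold change of 1.19 ± 0.44 passed the threshold (adjusted p = 0.0394) and lost it without A1471 (0.53, adjusted p = 0.449) or without A1129 (1.14, adjusted p = 0.102). Mmp9 was at 12.5, 2.89 and 28.7 CPM with DMSO and 17.3, 0.940 and 35.5 with Combo in A1005, A1129 and A1471. Its blocked log2 difference was 0.03, with an interval of -0.73 to 0.79.

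**Figure D4:**
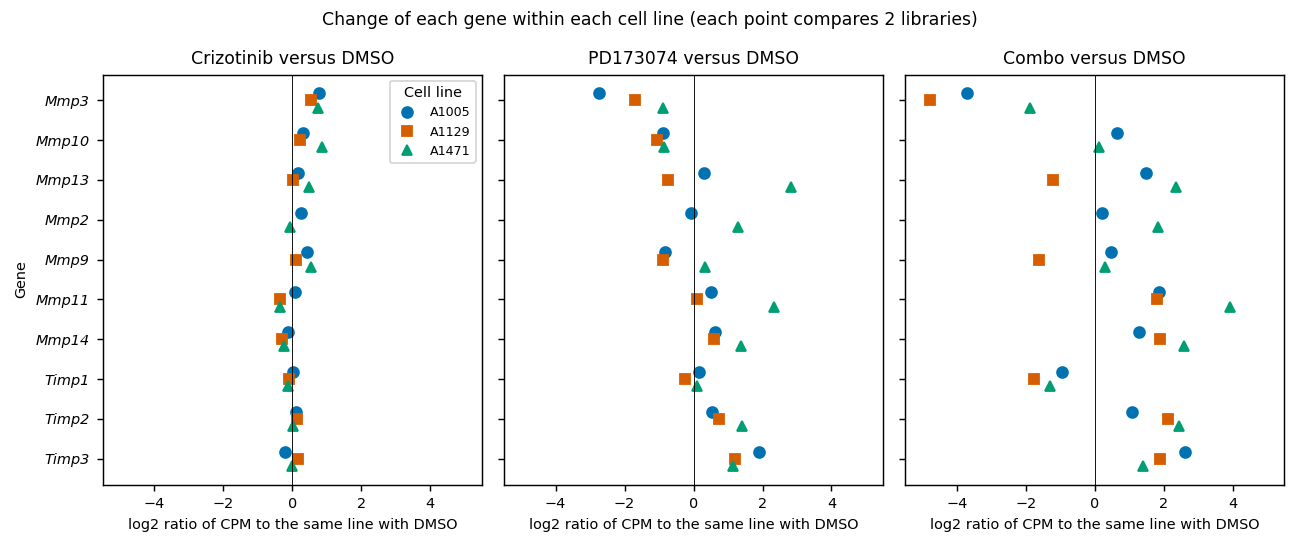
log2 ratio of CPM between a treatment and DMSO in the same cell line, for each gene, with 1 symbol per line. Ratios with 3 or fewer counts in either library are left out (Mmp2 in A1129 under each treatment and Mmp10 in A1129 under Combo). Under Crizotinib the points stay between -0.36 and 0.87, and under Combo those of Mmp3 and Timp1 lie left of 0 and those of Mmp11, Mmp14, Timp2 and Timp3 right of 0 in all 3 lines.

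For Crizotinib alone none of the 10 genes was called in either fit, both of which called 0% of all tested genes, and none reached an unadjusted p under 0.05 in edgeR or limma-voom. DESeq2 gave a p for 8 of the 10 (it gave none for Mmp10 and Mmp13 in any comparison), and none of the 8 was under 0.05. Over all genes, 18 had an unadjusted p under 0.05 in the unpaired fit, and DESeq2 called 1 gene. Mmp3 was higher with Crizotinib in the 3 lines, at 916 against 533 CPM in A1005, 65.1 against 44.9 in A1129 and 4.17 against 2.49 in A1471. This difference was 0.67 on the log2 scale with the line as a block, with an interval of -0.07 to 1.40, and did not pass the test (adjusted p = 1). The blocked intervals for Timp1 (-0.38 to 0.23), Timp2 (-0.45 to 0.64) and Mmp14 (-0.74 to 0.30) bounded any change of these genes to less than 1 on the log2 scale.

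PD173074 alone called none of the 10 genes in the unpaired fit, which called 0 of all tested genes. Timp2 was the only one of the 10 with an unadjusted p under 0.05 in edgeR, and also in DESeq2 and limma-voom (log2 difference 0.94 with an interval of 0.22 to 1.66 in edgeR). Over all genes 307 had an unadjusted p under 0.05 in the unpaired fit, and DESeq2 called 21. The blocked fit called 2 of the 10 genes, against 2.14% of all genes (1.62% higher and 0.52% lower). Timp3 rose by 1.52 ± 0.28 on the log2 scale (adjusted p = 0.0218) and Mmp3 fell by 2.03 (SE 0.38, adjusted p = 0.0252). Both calls were lost when any line was left out, with adjusted p of 0.119, 0.0970 and 0.122 for Timp3 and 0.210, 0.0736 and 0.154 for Mmp3 without A1005, A1129 and A1471.

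In CPM, Mmp3 was at 79.7, 13.9 and 1.35 with PD173074 in A1005, A1129 and A1471, and Timp3 at 75.5, 1.22 and 9.61. In each line these values lay between those with DMSO and those with Combo. Mmp14, at 165, 122 and 433 CPM, and Timp2, at 832, 749 and 1409 CPM, also took intermediate values in each line. Their blocked log2 differences from DMSO were 0.85 and 0.89 (adjusted p = 0.0994 and 0.104), short of the threshold. Timp1, at 161, 97.9 and 80.9 CPM with PD173074, took an intermediate value in A1129 only and was slightly above DMSO in A1005 and A1471. Its blocked interval against DMSO was -0.31 to 0.29.

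The other proteases among the 10 genes showed no call with PD173074 in either fit. Mmp11 was at 16.9, 9.52 and 31.3 CPM in A1005, A1129 and A1471, so that most of its difference from DMSO was in A1471 (5.03-fold, against 1.42-fold and 1.08-fold in the other lines). Mmp10 was at 14.4, 0.573 and 1.07 CPM, lower than with DMSO in each line by 1.85-fold, 2.07-fold and 1.81-fold (blocked log2 difference -0.95, adjusted p = 0.383). Mmp10 thus had the same direction as Mmp3 with PD173074 in each line, and also with Crizotinib, at 33.1, 1.39 and 3.52 CPM, while with Combo it was lower than with DMSO in A1129 alone. Mmp2, at 6.41 CPM, 1 count and 40.1 CPM, and Mmp13, at 50.3, 0.429 and 2.92 CPM, were higher than with DMSO in A1471 by 2.43-fold and 7.04-fold, the latter on 41 and 6 counts. Mmp9, at 7.07, 1.57 and 36.0 CPM, was lower in A1005 and A1129 and higher in A1471.

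Combo was next compared with each single drug, and these comparisons share the Combo libraries with the comparison above. Against Crizotinib the unpaired fit called 3 of the 10 genes, against 13.2% of all genes (5.4% higher), and these were again Mmp11 (log2 fold change 2.79, adjusted p = 0.0130), Mmp14 (2.37, adjusted p = 0.0374) and Timp2 (1.88, adjusted p = 0.00603), all higher. The blocked fit called 6, against 53.4% of all genes (27.4% higher and 26% lower), with Timp3 higher and Mmp3 and Timp1 lower in addition. Leaving out A1129 or A1471 left 0 of the 10 genes called in the unpaired fit, and leaving out A1005 ended the call of Mmp14 (adjusted p = 0.0954) and added Timp1 (adjusted p = 0.0295).

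Against PD173074 the unpaired fit called 0 of the 10 genes, against 4.77% of all genes, with Mmp11, Timp1 and Timp2 at an unadjusted p under 0.05 in edgeR, and DESeq2 called these 3. The blocked fit called 5, against 39.8% of all genes (19.6% higher and 20.2% lower). Mmp11 rose by 1.55 (adjusted p = 0.0190), Mmp14 by 1.10 (adjusted p = 0.00494) and Timp2 by 1.03 (adjusted p = 0.00920) on the log2 scale, while Mmp3 fell by 1.76 (adjusted p = 0.00929) and Timp1 fell by 1.32 (adjusted p = 0.000101). Without A1129 only the Timp1 call of these 5 was left, since Mmp11, Mmp14, Timp2 and Mmp3 had adjusted p of 0.111, 0.0846, 0.132 and 0.144, and Mmp10 passed (log2 fold change 1.35, adjusted p = 0.0197). Without A1005 the call of Mmp11 was lost by a narrow margin.

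The departure of Combo from the sum of the single-drug log2 changes was tested as an interaction. The unpaired fit called 0 of the 10 genes, against 0.918% of all genes, and none had an unadjusted p under 0.05, while in DESeq2 Mmp11 and Timp2 had one and 0 of the 8 genes with a p were called. The blocked fit called 3 of the 10, against 16.2% of all genes (5.46% positive and 10.7% negative). Timp1 was 1.25 lower on the log2 scale than the sum of the single-drug changes predicted (departure -1.25, adjusted p = 0.00278), Mmp3 departed by -2.43 (adjusted p = 0.0166) and Mmp14 by 1.32 (adjusted p = 0.0259). Without A1129 the adjusted p of the departure was 0.147 for Mmp3 and 0.207 for Mmp14, and without A1471 it was 0.0731, 0.0773 and 0.0663 for Mmp3, Mmp14 and Timp1.

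The make-up of the MMP and Timp transcripts in each library was summed in CPM per kilobase of exon, as a description. In A1005 and A1129 with DMSO, Mmp3 was the leading protease, with 83.4% and 57.3% of the sum of the 7 MMPs, and in A1471 Mmp14 led with 60.8%. With Combo, Mmp14 led in all 3 lines with 28.2%, 80.3% and 72.5%, and Mmp3 was at 14.5%, 1.42% and 0.162%. The 7-gene sum fell short of its DMSO value in A1005 (156 against 355) and exceeded it in A1129 (63.5 against 43.6) and A1471 (232 against 45.7).

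Among the inhibitors, Timp1 made up 52.4%, 53.1% and 38.2% of the Timp sum with DMSO in A1005, A1129 and A1471. With Combo it made up 20.6%, 7.11% and 4.41%, and the ratio of Timp2 to Timp1 went from 0.894, 0.882 and 1.61 to 3.69, 13.1 and 21.6. The ratio of Timp2 to Mmp14 stayed in a narrower band, at 8.08, 8.44 and 4.96 with DMSO and 7.06, 9.86 and 4.44 with Combo. With PD173074 alone the ratio of Timp2 to Timp1 was 1.18, 1.75 and 3.97, between the DMSO and Combo values of each line.

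**Figure D5:**
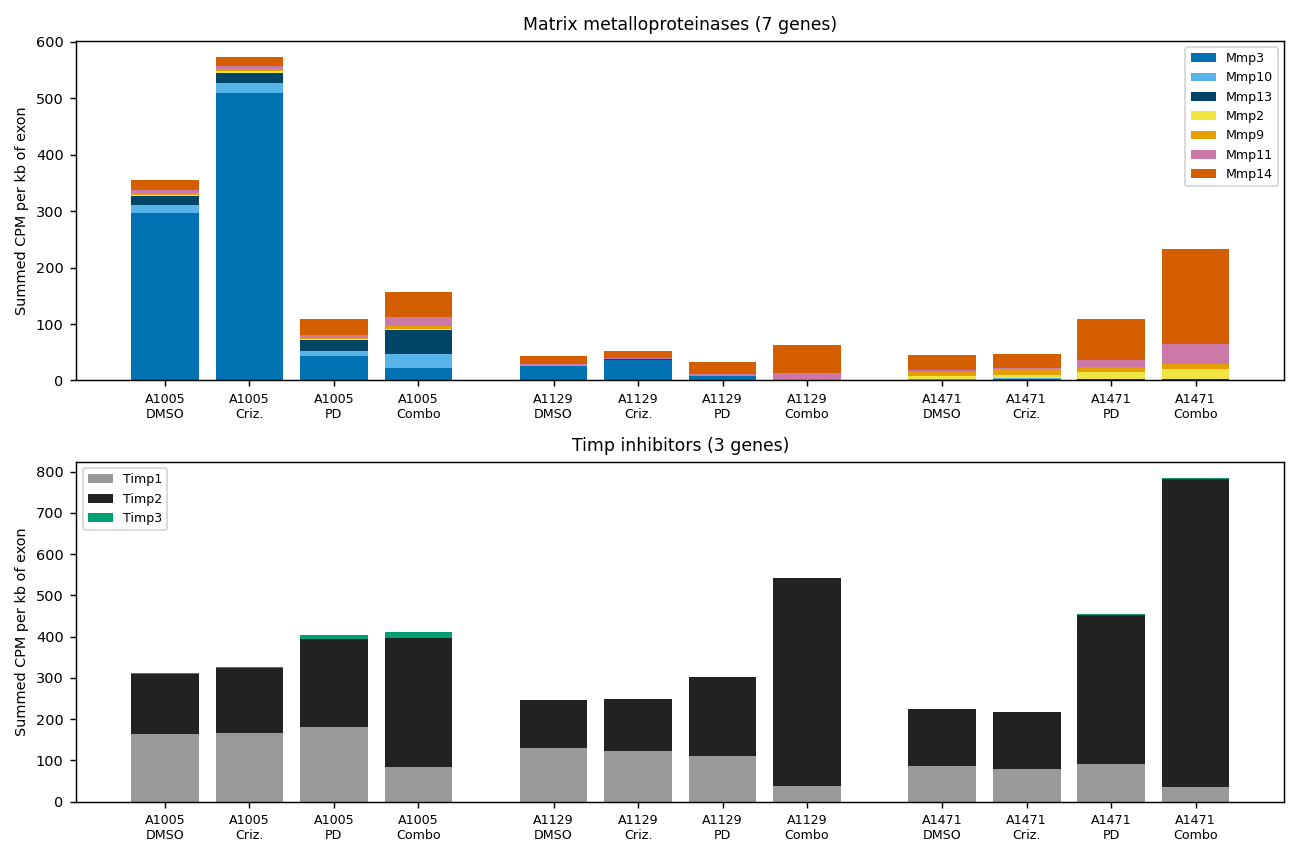
Summed level of the 7 MMP genes (top) and the 3 Timp genes (bottom) in each library, in CPM per kilobase of exon, stacked by gene and grouped by cell line. In A1005 the Mmp3 block shrinks from 296 with DMSO to 22.7 with Combo, and in each line the Timp2 block grows while the Timp1 block shrinks.

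To describe which genes shared a pattern, log2 CPM was centred within each line and correlated over the 12 libraries, which share 3 lines and 4 treatments. Among the 10 genes, Mmp14 was closest to Timp2 (r = 0.987) and Mmp11 (r = 0.973), Mmp9 to Mmp10 (r = 0.890), and Mmp3 ran opposite to Timp3 (r = -0.928). Among 9224 genes with a mean log2 CPM of at least 3, the nearest to Mmp14 were Wdtc1, Antxr1 and Irf9 (r = 0.997, 0.996 and 0.996), and the nearest to Timp2 were Irs1, Pcdh18 and Vwa5a (r = 0.993, 0.991 and 0.991). The nearest to Mmp3 were Igfbp4, Ccn3 and Rgs16 (r = 0.984, 0.982 and 0.977), and the nearest to Timp1 were Snu13, Rpp40 and Pgam5 (r = 0.992, 0.991 and 0.990). For Mmp11 they were Cd24a, Sdhaf1 and Ifi27 (r = 0.995, 0.991 and 0.989) and for Timp3 Sertad4, Ubxn2b and Tor1aip1 (r = 0.988, 0.979 and 0.978).

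Of 16 other MMP genes, 8 passed the filter on low counts. Under Combo against DMSO the unpaired fit called 1 of the 8, against 14.4% of all genes. This was Mmp1a, a rodent interstitial collagenase gene, which had 25, 4 and 4 counts with DMSO and 0 in each Combo library. Set against a floor of 3 counts over the Combo group, it was at least 12.2-fold lower. Mmp1a passed the filter only through DMSO and Crizotinib libraries, where its counts were higher, so the call is given as a description. The blocked fit called 6 of the 8, against 54.8% of all genes. In it Mmp1b, a close relative (47, 2 and 4 counts to 2, 0 and 0), as well as Mmp1a and Mmp19 (912, 228 and 531 counts to 730, 95 and 240) were lower, and reads of Mmp1a and Mmp1b may be hard to tell apart. Mmp1b passed the filter only through A1005 libraries without Combo (47, 118 and 15 counts with DMSO, Crizotinib and PD173074). Its call is therefore also given as a description. The membrane-type genes Mmp15 (0, 22 and 12 counts to 2, 224 and 156) and Mmp16 (22, 22 and 4 counts to 89, 62 and 62) and the secreted Mmp28 (163, 11 and 15 counts to 358, 40 and 26) were higher. For PD173074 against DMSO the unpaired fit called 0 of the 8, and the blocked fit called 1, against 2.14% of all genes. That gene was Mmp15, higher by 1.36 on the log2 scale (edgeR, adjusted p = 0.0485).

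Of 6 other inhibitors and partners, 5 were tested. Under Combo against DMSO none passed the unpaired fit, against 14.4% of all genes, and the blocked fit called 1, against 54.8%. Cd63, a tetraspanin that binds Timp1 at the cell surface, rose by 0.55 with the line as a block (adjusted p = 0.0288). Reck, a membrane-anchored MMP inhibitor, was at 0, 49 and 6 counts with DMSO and 1, 87 and 16 with Combo (blocked log2 fold change 1.04, adjusted p = 0.0908). Timp4 had 0 counts in all 12 libraries.

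Of 15 ADAM and ADAMTS genes, which include targets of Timp3, 12 were tested and 2 passed the unpaired fit under Combo against DMSO, near the 14.4% of all genes. The aggrecanase Adamts4 went from 33.0 ± 11.0 to 373 ± 453 CPM (SD, n = 3), with 585, 414 and 379 counts against 2263, 1560 and 11869 (log2 fold change 3.50, adjusted p = 0.0374). Adam15 rose by 0.54 on the log2 scale (adjusted p = 0.0392). The blocked fit called 7 of the 12, near the 54.8% of all genes, and in it Adam9, Adam10, Adamts5 and Adamts12 rose as well and Adam8 fell. Adam17, the main sheddase that Timp3 inhibits, was at 146 ± 32.1 CPM with DMSO and 142 ± 18.9 with Combo (blocked log2 difference -0.02, adjusted p = 0.890).

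The summed level of the 8 mesenchymal markers ran from 3503 to 5467 CPM with DMSO and from 3600 to 9845 with Combo. In the unpaired fit Twist1 fell and none of the others passed, and the blocked fit called 5 of the 8, with Col1a1, Pdgfrb, Sparc and Zeb2 higher and Twist1 lower. These counts were near the 14.4% and 54.8% of all genes. The summed epithelial markers lay between 16.4 and 40.6 CPM with DMSO and between 7.55 and 42.2 with Combo, and the summed leukocyte markers between 4.80 and 31.8 and between 8.30 and 42.0. Of the 3 epithelial and 2 leukocyte markers tested, the unpaired fit called 0 and the blocked fit called Krt18 lower and Cd68 higher. The part of these markers in the changes of the MMPs and Timps was not tested.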

How the data were processed

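Total RNA of tumourspheres was sequenced on a NextSeq500. The authors deposited a table of raw read counts for each Ensembl gene, made with bcl2fastq, STAR and HTSeq on build mm10 according to the submitters' processing notes. Versions, strand setting and annotation release are not given in the sources used here.

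From these counts, genes were filtered by edgeR 4.0.16 (filterByExpr), scaled by TMM and tested in a quasi-likelihood fit of all 12 libraries (R 4.3.3), unpaired as the study's methods state, with Benjamini-Hochberg adjustment over 13836 genes and a threshold of 0.05. The alternatives were DESeq2 1.42.0, limma-voom (limma 3.58.1), a block for cell line, other scalings and filters, and each line left out. The labels pair libraries by cell line: deviations from treatment means correlated at a mean r of 0.871 within lines (lowest 0.766). The mean r between lines was -0.422, which follows in part from the centring, since the 3 deviations of a treatment sum to 0. With the cell line as a replicate block 8 of the 10 genes were called for Combo against DMSO, against 54.8% of all genes tested. CPM per kilobase used exon lengths of GENCODE M21, which holds 55480 of the 55573 genes. Scripts were tested on simulated data. The closest genes by correlation were the 3 with the highest r. Values are given for the 10 genes, and for other genes of the lists that passed a test or bear on a result. Genes and lists were chosen with earlier results of these data known. Reads carried no molecular identifiers, so floors of 3 counts cover counting error only.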

Additional observations from a re-analysis of the deposited data

Results flagged for a closer look

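The departure of Combo from the sum of the single-drug changes differed from 0 for 3 genes in the test of the interaction itself with the cell line as a block. It was 1.32 on the log2 scale for Mmp14, -1.25 for Timp1 and -2.43 for Mmp3 (edgeR, adjusted p = 0.0259, 0.00278 and 0.0166), and none of the 3 passed in the unpaired fit. For this departure the blocked fit called 16.2% of all genes tested and the unpaired fit 0.918%.

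The other flag concerned 2 genes whose values went in opposite directions in different lines under Combo against DMSO. Mmp9 differed by 0.47 on the log2 scale in A1005, by -1.62 in A1129 and by 0.31 in A1471, where the A1129 value rests on 44 and 15 counts. Mmp13 differed by 1.48 in A1005, by -1.21 in A1129 and by 2.35 in A1471, where the A1129 value rests on 11 and 5 counts. Each line has 1 library per treatment, so the difference between lines was not tested.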

How the results depend on the processing

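With the cell line as a replicate block in place of the unpaired fit, the number of the 10 genes called went from 3 to 8 for Combo against DMSO, from 0 to 2 for PD173074 against DMSO, from 0 to 5 for Combo against PD173074, from 3 to 6 for Combo against Crizotinib and from 0 to 3 for the departure from additivity, and stayed at 0 for Crizotinib. Under the block the share of all tested genes called rose too, from 14.4% to 54.8% for Combo against DMSO. It went from 0% to 2.14% for PD173074 against DMSO and from 4.77% to 39.8% for Combo against PD173074. It went from 13.2% to 53.4% for Combo against Crizotinib and from 0.918% to 16.2% for the departure. DESeq2 called 3 genes for Combo against PD173074. It gave no p for Mmp10 and Mmp13, which are left out of its counts. Leaving out 1 line at a time gave 0 to 3 calls for Combo against DMSO and against Crizotinib (0 without A1129 and without A1471) and 0 to 1 for Combo against PD173074 (1 without A1005). Under the block, where leaving out a line was added after seeing the data, the range was 6 to 7 for Combo against DMSO, 0 to 0 for PD173074 against DMSO, 2 to 5 for Combo against PD173074, and 1 to 4 for the departure (1 without A1129 and without A1471). Fewer lines leave fewer libraries to estimate the spread. The unpaired Mmp14 call for Combo against DMSO was also lost with limma-voom (adjusted p = 0.0558), with no filter on low counts (0.0638) and with only the compared groups in the fit (0.0958). Of the 794 log2 fold changes of single genes under an alternative, 688 kept direction and side of the threshold, 30 gained a call, 38 lost one and 38 changed sign.

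The sign changes involved no called value. Leaving out 1 line at a time in the unpaired fit, Mmp2 ran from -0.047 to 1.29 for PD173074 against DMSO, from -0.050 to 0.28 for Crizotinib against DMSO and from -0.017 to 1.91 for Combo against Crizotinib. Mmp9 ran from -0.81 to 0.26 for PD173074 against DMSO, from -0.031 to 1.05 for Combo against PD173074 and from -0.56 to 0.69 for the departure. Mmp10 ran from -0.50 to 0.60 for Combo against DMSO, from -1.16 to 0.27 for Combo against Crizotinib and from -0.25 to 1.14 for the departure, and Mmp13 from -0.46 to 1.15 for Combo against PD173074 and from -0.65 to 0.99 for the departure. Timp1 ran from -0.100 to 0.14 for PD173074 against DMSO, and Timp3 from -0.22 to 0.015 for Crizotinib against DMSO. With the line as a block as well, Mmp9 ran from -0.23 to 0.41 for Combo against DMSO, from -0.16 to 0.67 for Combo against PD173074 and from -0.54 to 0.40 for the departure. Mmp10 ran from -0.82 to 0.48 for Combo against DMSO and from -0.42 to 0.82 for the departure, Mmp13 from -0.46 to 0.94 for Combo against PD173074 and from -0.64 to 0.81 for the departure, Timp1 from -0.077 to 0.12 for PD173074 against DMSO and Timp3 from -0.16 to 0.042 for Crizotinib against DMSO. The replicate block itself turned Mmp9 (-0.33) and Timp1 (-0.0092) for PD173074 against DMSO and Mmp10 (-0.41) for Combo against Crizotinib, and DESeq2 size factors turned Mmp9 for PD173074 against DMSO (-0.0047). With limma-voom, Mmp9 was at -0.29 for Combo against DMSO and -0.43 for PD173074 against DMSO, Mmp10 at -0.79 for Combo against DMSO, -0.057 against PD173074, -1.32 against Crizotinib and -0.58 for the departure, Mmp2 at -0.39 and Mmp13 at -0.22 for the departure, Timp1 at -0.0034 for PD173074 against DMSO and Timp3 at 0.035 for Crizotinib against DMSO.

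All 10 genes passed the low-count filter, but Mmp2, Mmp3, Mmp9, Mmp10, Mmp13 and Timp3 had between 0 and 44 counts in at least 1 DMSO library, which limits what a single line can show. The causes of the shifts were not tested.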
